A study of Mus musculus with 6 samples.

Results

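The transcripts described here are the 200 long noncoding RNAs (lncRNAs) with the most reads in control mouse bone marrow mesenchymal stem cells. They were taken from the 2579 genes that the deposited count table types as lncRNA, out of 22030 genes in all. Genes were ranked by their summed reads over the 3 control libraries, after 21 lncRNA genes were left out by name (Malat1, Neat1, Kcnq1ot1, Peg13, H19, Meg3, Gas5 and the genes whose symbols start with Snhg). Of the 200, 87 carry a Gm number, 70 a Rik clone name and 43 another symbol. The GENCODE M21 catalogue holds all but Gm16586 by identifier and classes 3 of them, Gm47283, Erdr1 and Gm10644, as protein coding. The others have a noncoding class there, with 73 lincRNAs, 70 processed transcripts and 38 antisense RNAs as the main ones.

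RNA-seq libraries were made from mouse bone marrow mesenchymal stem cells, the stromal progenitors that give rise to bone, fat and cartilage cells. Of the 6 libraries, 3 are titled siRIOK3 and labelled as a knockdown of the atypical kinase gene Riok3, and 3 are titled siNC and labelled WT (control). The study's design text describes stable knockdown lines made with a lentivirus and also uses the word knockout, so the titles' prefix and the text differ on how Riok3 was lowered. No source used here gives the mouse strain, animal age, passage, number of clones or animals or the origin of the replicates, so p-values measure the spread between these libraries, which may be technical.

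Long noncoding RNAs are capped and mostly spliced transcripts with no known protein product. Some act as RNA, for instance by holding RNA-binding proteins or by tuning a neighbouring gene in cis, some are read through for the small RNAs in their introns or exons (microRNAs and small nucleolar RNAs), and for many only the act of transcription or no role is known. A microRNA is cut from such a host transcript and pairs with messenger RNAs mainly through its seed, bases 2 to 8 from the 5′ end.

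Of the 200 members, 11 hold an annotated microRNA on their own strand, with 46 mature microRNA names and 34 different seeds among them. The mature sequences below are those of the hosts whose levels are described further on. They are from RefSeq on GRCm38.p6, 5′ to 3′, with the seed in capitals. Mir100hg on chromosome 9 and Mir99ahg on chromosome 16 hold related clusters, whose members share seeds.
mmu-miR-100-5p (Mir100hg): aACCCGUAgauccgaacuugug
mmu-miR-99a-5p (Mir99ahg): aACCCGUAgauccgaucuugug
mmu-miR-125b-5p (both hosts): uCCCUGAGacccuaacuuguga
mmu-let-7c-5p (Mir99ahg and Lncppara): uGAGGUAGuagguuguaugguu
The let-7 seed returns in 6720427I07Rik on chromosome 13 and in Lncppara on chromosome 15. The let-7a-2 hairpin in Mir100hg holds the let-7a letters as well, so that 5 let-7 names in 4 hosts share the seed.
mmu-let-7a-5p (6720427I07Rik and Mir100hg): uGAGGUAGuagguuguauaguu
mmu-let-7f-5p (6720427I07Rik): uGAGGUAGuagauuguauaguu
mmu-let-7d-5p (6720427I07Rik): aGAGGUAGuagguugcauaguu
mmu-let-7b-5p (Lncppara): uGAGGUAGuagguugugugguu
Dleu2 and Mir17hg on chromosome 14, A330023F24Rik on chromosome 1, Mir22hg on chromosome 11 and Ftx on the X chromosome hold the rest of those shown.
mmu-miR-15a-5p (Dleu2): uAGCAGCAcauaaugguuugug
mmu-miR-16-5p (Dleu2): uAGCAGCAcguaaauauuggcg
mmu-miR-17-5p (Mir17hg): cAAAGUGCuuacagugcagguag
mmu-miR-20a-5p (Mir17hg): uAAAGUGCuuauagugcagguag
mmu-miR-19b-3p (Mir17hg): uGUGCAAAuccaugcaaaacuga
mmu-miR-92a-3p (Mir17hg): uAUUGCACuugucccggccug
mmu-miR-29b-3p (A330023F24Rik): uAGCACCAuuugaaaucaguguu
mmu-miR-29c-3p (A330023F24Rik): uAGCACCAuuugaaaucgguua
mmu-miR-22-3p (Mir22hg): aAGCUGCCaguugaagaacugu
mmu-miR-374b-5p (Ftx): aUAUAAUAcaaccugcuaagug

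A second set of sequences belongs to lncRNAs whose transcripts resemble zinc finger genes, because the 2 largest fold changes among the members were of this kind. A C2H2 zinc finger is a short protein fold in which 2 cysteines and 2 histidines hold a zinc ion, and genes for KRAB-type transcription factors carry long arrays of it. GENCODE M21 transcripts were translated in the 3 sense frames and searched for 2 cysteines and 2 histidines at the spacing of such a finger, with 12 residues between the pairs. The first match of each array, 63 nt of the RNA, is shown with the 4 cysteine and histidine codons in capitals. The matches are letters in a transcript typed as noncoding, and the data do not bear on translation.
Gm5165 (chromosome 17): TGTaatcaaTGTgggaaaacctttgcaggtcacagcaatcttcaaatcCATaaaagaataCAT
BC002059 (chromosome 17): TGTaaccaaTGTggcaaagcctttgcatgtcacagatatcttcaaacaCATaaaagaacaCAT
E430024I08Rik (chromosome 13): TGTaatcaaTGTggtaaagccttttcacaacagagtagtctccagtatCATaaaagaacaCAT
Gm46430 (chromosome 13): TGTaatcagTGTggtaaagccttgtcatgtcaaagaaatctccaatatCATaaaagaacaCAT

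RefSeq gives a promoter window, from 250 bases before to 50 after the start, for 105 members. The windows of 4 are shown with each CG in capitals, those of the 2 members with the largest falls and those of 2 members that rose. The windows of BC002059 (chr17:16951286-16951585, plus strand) and Gm5165 (chr17:17234653-17234952, plus strand) hold 9 and 10 CG dinucleotides and were 92.4% identical over 250 aligned bases.
BC002059: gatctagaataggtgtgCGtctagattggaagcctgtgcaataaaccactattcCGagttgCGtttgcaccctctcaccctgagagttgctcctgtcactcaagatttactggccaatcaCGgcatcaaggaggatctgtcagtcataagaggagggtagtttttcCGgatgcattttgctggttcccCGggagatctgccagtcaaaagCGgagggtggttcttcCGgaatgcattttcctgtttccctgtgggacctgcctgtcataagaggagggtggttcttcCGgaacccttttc
Gm5165: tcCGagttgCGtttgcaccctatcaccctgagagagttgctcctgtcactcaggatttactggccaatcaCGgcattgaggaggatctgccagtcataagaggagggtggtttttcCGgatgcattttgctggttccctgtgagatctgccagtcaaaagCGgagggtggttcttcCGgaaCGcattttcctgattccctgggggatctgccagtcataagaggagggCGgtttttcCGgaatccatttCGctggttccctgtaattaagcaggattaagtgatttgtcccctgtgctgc
The windows of 4933412E12Rik (chr10:116950312-116950611, plus strand) and 4833418N02Rik (chr17:87282765-87283064, minus strand) hold 42 and 30. All coordinates are GRCm38.p6.
4933412E12Rik: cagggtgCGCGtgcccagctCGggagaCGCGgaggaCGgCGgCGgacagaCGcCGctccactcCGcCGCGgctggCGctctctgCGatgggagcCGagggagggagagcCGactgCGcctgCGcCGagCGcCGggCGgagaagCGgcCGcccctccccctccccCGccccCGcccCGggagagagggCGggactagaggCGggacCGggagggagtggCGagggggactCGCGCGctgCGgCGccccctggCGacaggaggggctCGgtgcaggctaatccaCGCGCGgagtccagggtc
4833418N02Rik: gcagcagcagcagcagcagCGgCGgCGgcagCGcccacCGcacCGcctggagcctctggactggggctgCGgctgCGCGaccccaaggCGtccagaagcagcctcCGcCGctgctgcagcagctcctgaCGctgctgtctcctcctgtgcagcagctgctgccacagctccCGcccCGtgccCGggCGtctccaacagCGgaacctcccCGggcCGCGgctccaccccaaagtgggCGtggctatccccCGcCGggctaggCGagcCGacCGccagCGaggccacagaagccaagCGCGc
The CCAAT letters, searched on both strands, stand in the first pair and not in the second. The GGGCGG letters stand in 3 of the 4, BC002059 being the one without, and the TATAAA letters in none.

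Each library held between 28327612 and 32569544 counted reads, and the 200 members took 0.301% to 0.307% of them in knockdown libraries and 0.311% to 0.386% in control libraries. Riok3 itself had 32.1, 31.5 and 37.2 CPM (reads scaled to library size, with TMM factors) in knockdown libraries, against 143, 193 and 135 in control libraries, a 4.68-fold lower level, in the direction of the labels. Control replicate 2 stood apart from the other controls: across the members its levels had rank correlations of 0.80 and 0.84 with control replicates 1 and 3, which correlated at 0.94 with each other. It was over 2-fold above the mean of the other controls in 13 members and over 2-fold below it in 18. Fold changes over all genes also followed the GC content of the transcript (Spearman 0.70 over 13043 genes), and whether this arose in the cells or in library preparation was not tested. Mesenchymal markers summed to 918 to 932 CPM in knockdown and 762 to 979 CPM in control libraries, with Thy1 and Lepr near 0 in both groups. Of the 14 markers 5 were lower and 6 higher, among them Vcam1 at a mean of 20.9 CPM in knockdown and 56.9 CPM in control and Col1a2 at 398 CPM in knockdown and 172 CPM in control, and their part in the results was not tested. The leukocyte marker Ptprc had at most 3 reads in any library, and the summed macrophage list, nearly all Cd68, was 46.5 to 51.7 CPM in knockdown and 26.6 to 43.2 CPM in control libraries, and its part in the results was not tested. In bulk RNA, fewer cells of a type and less RNA per cell cannot be told apart.

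Riok3 knockdown libraries had 77 of the 200 lncRNAs lower and 25 higher than control libraries, and 98 passed in neither direction (edgeR quasi-likelihood test, adjusted p under 0.05). All 200 passed the filter on low counts. Over all 13067 tested genes 26.8% were called lower and 21.1% higher. The median log2 fold change was -0.27 for the members, with quartiles at -1.19 and 0.29, and 0.014 for all tested genes. At 2-fold or more, 59 members were lower and 11 higher, where the shares over all tested genes were 19.2% and 6.67%. The 3 knockdown libraries all lay below the 3 control libraries in 86 members and all above them in 45, where the shares over all tested genes were 31.3% and 30.8%. Since the members were chosen by their control reads, which are one arm of this contrast, a lean toward lower values is partly set by the choice, and nothing is read from it.

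**Figure D1:**
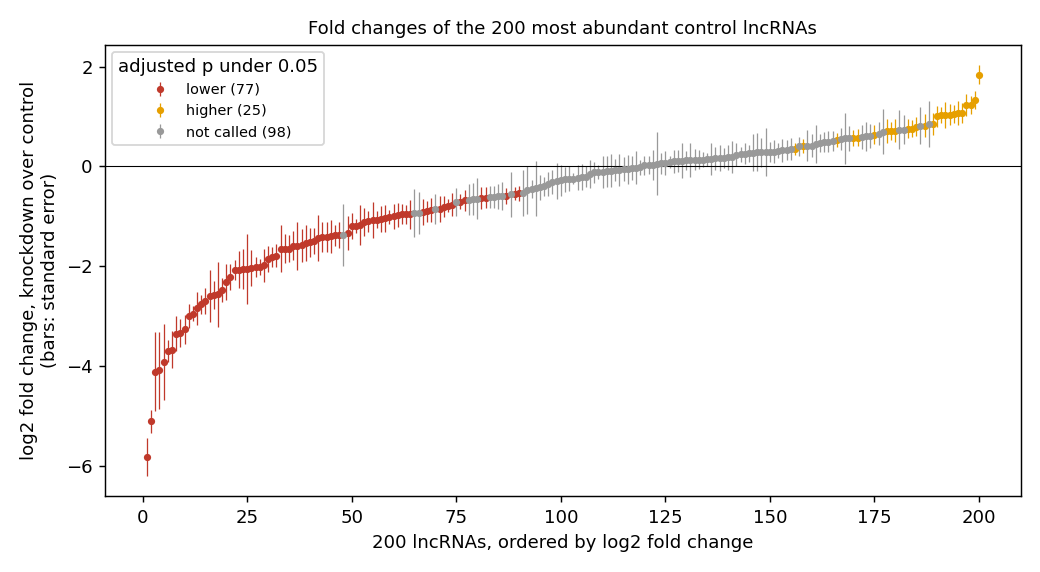
Log2 fold change, knockdown over control, of the 200 lncRNAs (y axis, bars are the standard error) in order of size (x axis), coloured by the edgeR call. The falls reach -5.83 and the rises 1.84, with 77 members lower, 25 higher and 98 in neither group.

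How the 200 were picked moved the balance of calls. Of the 200 lncRNAs with the most knockdown reads, 160 are the same genes, and of these 200 there were 45 lower and 46 higher, with a median of 0.18. Picked by the reads of all 6 libraries, 183 genes were shared, with 65 lower and 37 higher and a median of -0.031. Picked by control replicates 1 and 3 alone, 192 were shared, with 78 lower and 26 higher. A fit that removes the trend of fold change on transcript GC content, called the GC correction from here on, left 36 members lower and 39 higher, with a median of 0.061, beside 15.2% lower and 16.4% higher over all genes in that fit. Without control replicate 2 the counts were 85 lower and 48 higher, beside 36.5% and 35.1% of all genes in that fit. With libraries scaled by their totals alone 62 were lower and 45 higher, beside 21.5% and 32.8% of all genes, and all genes shifted up by 0.25 on the log2 scale.

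**Figure D2:**
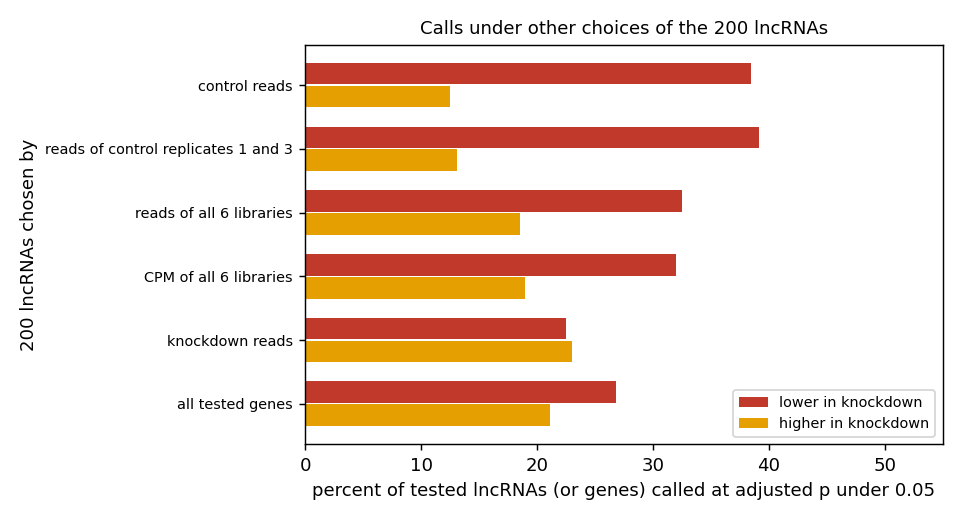
Percent of tested lncRNAs called lower or higher in knockdown (x axis) for 5 ways of choosing 200 lncRNAs, with all tested genes in the last row. The share lower was 38.5% for the members chosen by control reads and 22.5% for those chosen by knockdown reads.

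The order by control reads is one arm of the contrast, so the counts along it are a description only. Of the 50 with the most control reads (794 to 40045), 30 were lower and 4 higher, with a median log2 fold change of -0.71. The next 50 had 21 lower and 9 higher, the third group 13 lower and 4 higher, and the last 50, at 118 to 184 control reads, 13 lower and 8 higher. At the edge of the list, Gm43597 and Gm45338 were the last to enter, with 118 summed control reads each. The first lncRNAs outside it were Gm47113 with 117 and G630016G05Rik with 115.

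Levels are given per length as the deposited FPKM (fragments scaled by gene length and library total). They spanned 0.03 to 527 in mean knockdown and 0.143 to 428 in mean control libraries, with medians of 1.45 and 1.66, and 22 members reached 10 FPKM in each group. The top of the list was held by small nucleolar RNA hosts, whose introns carry guide RNAs for ribosomal RNA modification. 2410006H16Rik, the highest, had 535, 519 and 527 FPKM in knockdown libraries and 399, 546 and 339 FPKM in control libraries. Epb41l4aos followed with 183, 185 and 158 FPKM in knockdown and 118, 208 and 126 FPKM in control libraries. In both genes control replicate 2 was above every knockdown library and the other controls were below every one, so the groups overlapped. From the second to the tenth place in control, every gene's range overlapped that of the next, and only the first place stood clear of the second.

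**Figure D3:**
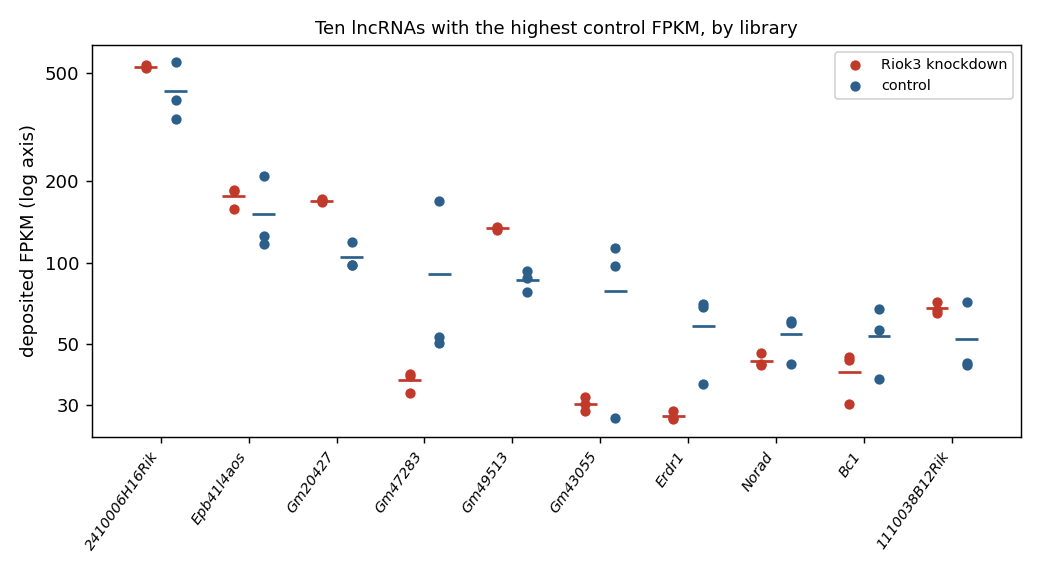
Deposited FPKM (log axis) of the 10 lncRNAs with the highest control mean, with a point for each library and a line at the group mean, knockdown left of control. The knockdown points lie close together, while control replicate 2 is the highest or lowest control in 9 of the 10 genes, as in Gm47283 (169 FPKM, against 53.2 and 50.6 in the other controls).

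Among the other abundant members, both directions occurred. Gm20427 had 170, 171 and 167 FPKM in knockdown and 98.1, 119 and 97.7 FPKM in control libraries. In TMM-scaled counts, a different scale from FPKM, it rose by 0.41 ± 0.14 (SE) on the log2 scale (edgeR adjusted p = 0.0404). Its value was -0.20 after the GC correction, which was not called. It starts within 2 kb of the retinoid receptor gene Rxrb on the other strand, which rose as well, with a log2 change of 0.67 ± 0.13, and lost its call after the GC correction at -0.03. Gm49513 rose to 132, 134 and 135 FPKM in knockdown, against 93.4, 78.1 and 88.0 FPKM in control libraries. In TMM-scaled counts its log2 change was 0.35 ± 0.12 (edgeR adjusted p = 0.0487, just under the threshold). After the GC correction it was at 0.007 with no call. In M21 it overlaps Pnpla3 on the same strand, so reads in the overlap could belong to either. 1110038B12Rik, with 65.1, 67.2 and 71.6 FPKM in knockdown and 41.8, 71.9 and 42.8 FPKM in control libraries, was not called, and its groups overlapped through control replicate 2 alone.

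Gm47283 on the Y chromosome held more control reads than any other member and fell to 162, 164 and 139 CPM in knockdown libraries, against 273, 878 and 252 CPM in control libraries. All knockdown values lay under the lowest control, and the log2 change was -1.59 ± 0.48 over all libraries and -0.76 without control replicate 2 (adjusted p = 0.0299 and 1.03e-07). Erdr1 on the X chromosome, named for a role in red cell differentiation, fell to 39.5, 41.8 and 39.4 CPM in knockdown, against 64.6, 129 and 120 CPM in control libraries (log2 change -1.38 ± 0.26). The M21 transcripts of these genes were 100% identical over 529 nt, nearly the whole 531 nt of Erdr1, so the split of reads between them is uncertain. Both are GC-rich, at 68.9% and 69.7%, and the GC correction gave larger falls of -2.17 and -1.96.

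Gm43055 showed how far a single control could sit from its group. Its levels were 25.1, 23.3 and 26.2 CPM in knockdown and 113, 27.2 and 94.3 CPM in control libraries, with control replicate 2 just above the knockdown range. It was called lower (log2 change -1.65 ± 0.47, adjusted p = 0.0237), a call that the GC correction took away at -0.16. 5430416N02Rik was lower at 90.0, 88.0 and 86.9 CPM in knockdown, against 124, 175 and 133 CPM in control libraries, a call lost after the GC correction at -0.47. Gm42047, at 93.8, 94.9 and 94.5 CPM in knockdown and 114, 108 and 114 CPM in control libraries, had separate groups but an adjusted p of 0.1. Bc1, a short rodent RNA known from neuronal dendrites, had 6.93, 7.09 and 4.70 CPM in knockdown and 12.95, 10.9 and 6.90 CPM in control libraries and was not called.

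Of the 11 members that hold a microRNA, 8 were called lower in the knockdown and none higher, and 3 passed in neither direction, beside 26.8% lower and 21.1% higher over all tested genes and 38.5% lower and 12.5% higher over the 200. This set was put together after its values had been seen. The libraries hold host transcripts, and the mature microRNAs were not measured. The 11 transcripts had a median GC content of 44.6%, and after the GC correction 2 were lower, 2 higher and their median log2 change 0.0096.

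**Figure D4:**
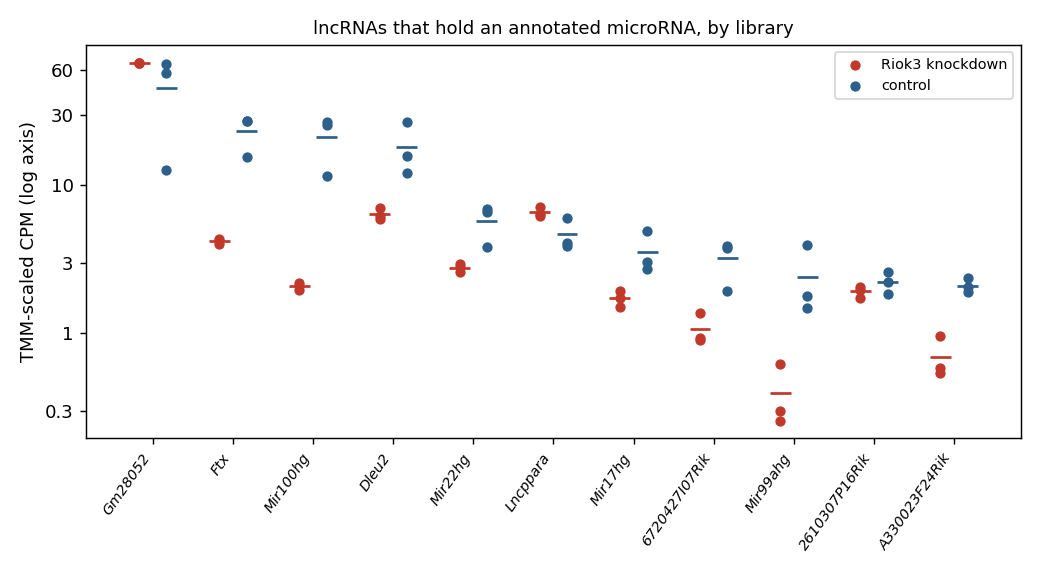
TMM-scaled CPM (log axis) of the 11 lncRNAs that hold an annotated microRNA, a point for each library and a line at the mean, knockdown left of control. In 8 hosts all knockdown points lie below all control points, and in Gm28052 and Lncppara all lie above them.

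Mir100hg and Mir99ahg, the hosts with shared seeds, both fell. Mir100hg had 1.96, 2.19 and 2.09 CPM in knockdown libraries, against 26.6, 11.5 and 25.7 CPM in control libraries, a 10.2-fold lower level (log2 change -3.35 ± 0.34, adjusted p = 0.000366). It stayed lower after the GC correction, at -2.31 (adjusted p = 0.00133). Mir99ahg had 0.621, 0.30 and 0.257 CPM in knockdown, against 1.78, 3.95 and 1.48 CPM in control libraries, which rests on 20, 10 and 8 reads in knockdown and 53, 110 and 44 reads in control libraries. Its log2 change was -2.60 ± 0.52, and 0.36 with no call after the GC correction, at a transcript GC content of 35.3%.

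Of the 4 hosts with the let-7 seed, Mir100hg, Mir99ahg and 6720427I07Rik were called lower and Lncppara was not called. 6720427I07Rik, which holds let-7a-1, let-7f-1 and let-7d, fell to 1.37, 0.931 and 0.901 CPM in knockdown, against 3.89, 1.94 and 3.77 CPM in control libraries (log2 change -1.58 ± 0.34). Lncppara, which holds let-7c-2 and let-7b, had 7.15, 6.40 and 6.21 CPM in knockdown and 4.06, 6.04 and 3.91 CPM in control libraries. Its groups did not overlap, yet the log2 value of 0.50 ± 0.21 did not pass (adjusted p = 0.0873), and it was 0.73 at an adjusted p of 0.000476 without control replicate 2. Corrected for GC, the values were 0.74 for 6720427I07Rik and 0.01 for Lncppara, neither called. The differences between hosts were not tested.

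Another 4 hosts were lower. Dleu2, host of miR-15a and miR-16-1, fell to 6.15, 7.03 and 5.89 CPM in knockdown, against 15.8, 26.8 and 12.2 CPM in control libraries. Mir17hg, host of the miR-17 to miR-92a cluster known for driving proliferation, fell to 1.74, 1.5 and 1.93 CPM in knockdown, against 4.90, 2.73 and 3.03 CPM in control libraries. These transcripts are AT-rich (34.5% and 40.1% GC), and after the GC correction both were called higher, at 1.64 and 0.96. The 50 members with the lowest GC content, these among them, then had a median of 0.72, with 19 called higher and 7 lower. Mir22hg fell to 2.95, 2.58 and 2.80 CPM in knockdown, against 6.91, 3.81 and 6.57 CPM in control libraries. In M21 it overlaps Tlcd2 on the same strand, so reads in the overlap could belong to either. A330023F24Rik, host of miR-29b-2 and miR-29c, a family known to repress collagen messenger RNAs, fell to 0.963, 0.541 and 0.579 CPM in knockdown, against 2.35, 1.90 and 2.05 CPM in control libraries. The calls of Mir22hg and A330023F24Rik were lost after the GC correction, at -0.17 and -0.75.

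The 3 X-linked lncRNAs with a known role on that chromosome were all called lower, beside 26.8% of all tested genes and 38.5% of the 200. Ftx, a positive regulator of Xist and host of the miR-374b and miR-421 hairpins, fell to 4.01, 4.32 and 4.18 CPM in knockdown, against 27.1, 15.6 and 27.0 CPM in control libraries, a 5.57-fold lower level. It kept its call after the GC correction, at -1.56 (adjusted p = 0.00114). Jpx, another activator of Xist, had 0.746, 0.691 and 0.869 CPM in knockdown, against 1.41, 1.47 and 1.35 CPM in control libraries (log2 change -0.87 ± 0.24, and 0.38 with no call after GC correction). Firre, which organises nuclear contacts of the X, had 21.8, 23.2 and 26.4 CPM in knockdown and 68.8, 22.7 and 70.4 CPM in control libraries. Firre was called lower, at -1.18 ± 0.40 (adjusted p = 0.0445), although control replicate 2 lay inside the knockdown range, and at -1.22 after the GC correction (adjusted p = 0.0442). Xist, not a member, had 0, 2 and 0 reads in knockdown and 14, 9 and 20 in control libraries.

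The list of conserved named lncRNAs had 10 members, with 8 lower, none higher and a median log2 change of -0.84. The shares were 26.8% lower and 21.1% higher over all tested genes, and 38.5% and 12.5% over the 200. After the GC correction 3 of the 10 were lower and 3 higher, with a median of -0.10. Norad, which binds Pumilio proteins and guards chromosome number, was the most abundant of them per length. It had 42.1, 42.4 and 46.4 FPKM in knockdown and 61.2, 42.5 and 60.1 FPKM in control libraries, and in TMM-scaled counts it fell to 195, 195 and 212 CPM in knockdown, against 343, 241 and 327 CPM in control libraries (log2 change -0.60 ± 0.16, adjusted p = 0.0197). Chaserr, a repressor of its neighbour Chd2, fell to 168, 165 and 116 CPM in knockdown, against 204, 333 and 226 CPM in control libraries. Chd2 had 137, 140 and 144 CPM in knockdown and 327, 77.8 and 299 CPM in control libraries and was not called. In M21 Chaserr overlaps Chd2 on the same strand, so reads in the overlap could belong to either. At 37.8% GC, Chaserr was called higher after the GC correction, at 1.68.

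Norad was at 0.12 after the GC correction and not called. Pvt1, the neighbour of Myc, fell to 25.8, 26.2 and 27.1 CPM in knockdown, against 47.6, 60.3 and 52.5 CPM in control libraries (log2 change -1.02 ± 0.14, adjusted p = 0.00101). Myc was lower too, at 108, 110.1 and 106 CPM in knockdown, against 152, 143 and 152 CPM in control libraries (-0.47 ± 0.11). Oip5os1, known as Cyrano for its site that binds miR-7, fell to 12.5, 10.8 and 11.1 CPM in knockdown, against 28.7, 26.8 and 23.2 CPM in control libraries. Morrbid, which in mouse myeloid cells represses the death gene Bcl2l11, fell to 4.50, 4.26 and 5.66 CPM in knockdown, against 8.79, 11.0 and 8.38 CPM in control libraries. Bcl2l11 rose to 13.5, 12.2 and 10.7 CPM in knockdown, against 6.81, 5.21 and 6.84 CPM in control libraries, and in this pair both groups were separate and both calls held after the GC correction, at -0.74 and 1.23. Lncpint, a p53-induced RNA, was lower by both fits as well, at -0.92 ± 0.26 and, after the GC correction, -0.89. Lockd, from downstream of the cell cycle inhibitor gene Cdkn1b, was lower at -0.63 ± 0.22, and Cdkn1b itself was not called (0.14 ± 0.27), though it was called higher after the GC correction, at 1.43. Crnde at -0.61 ± 0.22 and Bvht at -0.11 ± 0.32 did not pass. After the GC correction Pvt1 (-0.40) and Lockd (0.21) lost their calls, Oip5os1 was called higher (0.83) and Crnde lower (-1.20).

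The 2 largest falls were in zinc finger-like transcripts. Among the 200 lncRNAs, 7 had 3 or more C2H2 matches in an M21 transcript. All 7 were called lower, beside 26.8% of all tested genes and 38.5% of the 200. Their median log2 change was -3.34. As members the 7 were chosen by control reads, so their lean toward lower values is partly set by the choice, and nothing is read from it. The 7 are also all of the tested lncRNAs with such an array, out of 498. Among protein-coding genes 404 of 11845 had one, with 221 lower and 56 higher and a median of -1.03. The feature was looked for after the fold changes had been seen. The representative transcripts of the 7 hold 37.7% to 48.2% GC. The 48.2% is that of Gm32856, whose 4 matches lie in another M21 transcript and whose representative transcript has 0. After the GC correction, which uses the representative transcripts, 5 of the 7 kept a lower call. The median of the 7 was then -1.47, beside -0.22 for the coding genes with an array, which were not chosen by control reads.

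Gm5165, with 18 matches, had 7, 3 and 2 reads in knockdown libraries, against 247, 162 and 230 reads in control libraries. That is 0.217, 0.0901 and 0.0644 CPM in knockdown, against 8.29, 5.82 and 7.74 CPM in control libraries (log2 change -5.83 ± 0.38, adjusted p = 5.55e-05). BC002059, with 11 matches, fell to 1.49, 1.35 and 1.09 CPM in knockdown, against 54.7, 36.4 and 45.5 CPM in control libraries, a 34.5-fold lower level. It ranked 191 by knockdown reads and 16 by control reads. Both kept their calls after the GC correction, at -3.31 and -2.85. Their transcripts were 83.4% identical over 1560 nt, and 10 of the 21 pairs among the 7 aligned at all, at 77.9% to 88.8%, so reads of similar copies may be shared between them. The neighbouring zinc finger genes were lower as well, with log2 changes of -4.17 ± 0.55 for Zfp960 and -4.04 ± 0.55 for Zfp97, which were chosen after their values were seen. After the GC correction Zfp960 kept its call at -1.61, and Zfp97 lost its call at -1.52.

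On chromosome 13, E430024I08Rik had 0.249, 0.30 and 0.483 CPM in knockdown and 9.83, 1.29 and 6.50 CPM in control libraries, and Gm46430 had 2.21, 2.52 and 2.48 CPM in knockdown and 20.3, 18.9 and 16.8 CPM in control libraries. Zfp825, which neighbours E430024I08Rik, had a log2 change of -3.28 ± 0.55 and lost its call after the GC correction at -1.22. The call of E430024I08Rik was lost after the GC correction, at -1.47, and that of Gm46430 kept, at -1.42. Gm36445 fell to 0.311, 0.450 and 0.676 CPM in knockdown, against 5.0, 4.85 and 4.75 CPM in control libraries. Gm33989, with 23 matches, fell to 0.590, 0.961 and 1.03 CPM in knockdown, against 10.2, 6.18 and 8.55 CPM in control libraries. Gm32856, with 4 matches, fell least, to 9.35, 9.46 and 9.40 CPM in knockdown, against 25.8, 11.0 and 18.1 CPM in control libraries (log2 change -0.96 ± 0.29).

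Among the 8 largest falls of called members with separate groups and at least 2 CPM in control, Gm42890 and Gm45833 held no finger array and no microRNA. Gm42890 had 1, 7 and 14 reads in knockdown and 64, 211 and 71 reads in control libraries, a log2 change of -4.12 ± 0.79 at 50.3% GC, and -4.19 after the GC correction. Gm45833 had 13, 6 and 7 reads in knockdown and 76, 121 and 106 reads in control libraries, with log2 changes of -3.67 ± 0.37 and, after the GC correction, -3.77. Gm16586, which M21 does not hold, fell to 0.746, 0.631 and 0.772 CPM in knockdown, against 8.59, 11.2 and 8.15 CPM in control libraries. Its GC content and any finger array were not analysed here.

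The largest rise was that of 6330403L08Rik. The choice by control reads leaves out lncRNAs that are low in control, so the sizes of rises and falls are not compared. 6330403L08Rik, an antisense RNA across from Pdgfa, rose to 6.09, 7.45 and 6.50 CPM in knockdown, against 2.18, 1.65 and 1.75 CPM in control libraries (log2 change 1.84 ± 0.19, adjusted p = 0.000334). It kept its call after the GC correction, at 1.21. Pdgfa, which encodes a growth factor of mesenchymal cells, was not called at -0.13 ± 0.16 (called lower after the GC correction, at -0.56), while the nearby kinase subunit gene Prkar1b rose (1.15 ± 0.16, and 0.67 after the GC correction). Gm20460, which lies on the same strand as the lysosomal thioesterase gene Ppt2 and overlaps it, rose to 13.5, 13.5 and 12.6 CPM in knockdown, against 5.97, 3.99 and 5.76 CPM in control libraries. Ppt2 rose as well (1.04 ± 0.29), a call lost after the GC correction at 0.51, where Gm20460 kept its own at 0.73. Reads in the overlap could belong to either.

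Gm11613 rose to 5.13, 4.62 and 4.92 CPM in knockdown, against 2.28, 2.16 and 1.82 CPM in control libraries (log2 change 1.23 ± 0.18). Gm47163 rose by 1.23 ± 0.23, Gm46620 by 1.05 ± 0.18 and Gm20687 by 1.04 ± 0.20. These 3 lost their calls after the GC correction, at 0.68, 0.56 and 0.54. The pair whose CG-rich promoters are printed above kept theirs. 4933412E12Rik rose to 5.41, 5.92 and 5.09 CPM in knockdown, against 2.35, 2.30 and 3.17 CPM in control libraries, while Rab3ip, which starts within 2 kb on the other strand, was not called at -0.17 ± 0.13 and was called lower after the GC correction, at -0.44. 4833418N02Rik rose to 3.91, 3.66 and 3.28 CPM in knockdown, against 2.25, 1.62 and 1.31 CPM in control libraries, and Ttc7 across from it rose by 1.12 ± 0.17, and by 0.53 after the GC correction.

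Among the members, 10 carry the symbol of a coding gene plus an opposite-strand suffix, of which 4 were lower, none higher and 6 in neither group. The shares were 26.8% lower and 21.1% higher over all tested genes, and 38.5% and 12.5% over the 200. Partner genes did not follow a single pattern. Ptgs2os2, known as lincRNA-Cox2 for its place beside the prostaglandin synthase gene Ptgs2, fell to 0.808, 0.841 and 1.16 CPM in knockdown, against 6.54, 6.43 and 3.87 CPM in control libraries. Ptgs2 fell alike, to 4.88, 5.32 and 6.92 CPM in knockdown, against 40.8, 20.3 and 36.3 CPM in control libraries, and neither call held after the GC correction, at -0.19 and -0.47. Map2k3os fell to 1.99, 2.37 and 1.54 CPM in knockdown, against 5.03, 5.43 and 5.02 CPM in control libraries, a call that held at -1.35, and the kinase gene Map2k3 was not called. Foxd2os was lower at -0.68 ± 0.21, a call lost after the GC correction at -0.74. The forkhead factor gene Foxd2 rose to 1.68, 1.5 and 1.58 CPM in knockdown, against 0.369, 0.575 and 0.337 CPM in control libraries. Oip5os1 and Oip5 were both lower, but after the GC correction Oip5os1 was called higher and Oip5 was not called, at 0.17.

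In another 4 pairs, chosen after their values were seen, the coding gene fell and the antisense member did not pass. A further pair of this kind was Epb41l4aos, not called, and Epb41l4a, lower at -0.46 ± 0.12 and still called at -0.58 after the GC correction. Sp3os had 2.95, 3.27 and 2.83 CPM in knockdown and 1.24, 2.73 and 2.83 CPM in control libraries. The transcription factor gene Sp3 fell to 3.67, 4.08 and 4.83 CPM in knockdown, against 65.7, 31.5 and 58.1 CPM in control libraries. Zeb2os had 2.11, 3.12 and 2.93 CPM in knockdown and 2.15, 2.69 and 2.09 CPM in control libraries, and Zeb2, a repressor of epithelial genes, was lower at -2.69 ± 0.41. Brip1os, at 31.9, 32 and 30.1 CPM in knockdown and 27.8, 32.3 and 28.2 CPM in control libraries, stood across from the DNA helicase gene Brip1, which was lower at -2.07 ± 0.16. Rab10os at 0.14 ± 0.13 lay beside Rab10 at -0.84 ± 0.12. After the GC correction, Sp3 and Zeb2 kept their calls, both at -1.59, Brip1 and Rab10 lost theirs, and Sp3os and Brip1os were called higher, at 2.97 and 1.56. The kit marks strand, but whether counting used it is not given, so reads in an overlap cannot be assigned with certainty.

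Other lists of lncRNA classes held few members. The 3 small nucleolar RNA hosts outside the Snhg names, 2410006H16Rik, Zfas1 and Epb41l4aos, were all in neither group, with log2 values of 0.02 ± 0.20, -0.08 ± 0.22 and -0.06 ± 0.24. Without control replicate 2 all 3 were called higher, at 0.25, 0.21 and 0.27. The list of lncRNAs beside Hox and other developmental factor genes held 3 members. Foxd2os, beside a forkhead gene and not a Hox gene, was lower, and Hoxb3os at -0.36 ± 0.24 and Hotairm1 at 0.55 ± 0.22 did not pass. Airn, which silences Igf2r in cis on the paternal chromosome, was the one imprinted member and stood at 0.03 ± 0.31. Carmn, a smooth muscle RNA next to the miR-143 and miR-145 hairpins, stood at 0.29 ± 0.49. The list of microRNA host symbols held 7 members, of which Carmn was the one not called lower. The list linked to inflammation and interferon held Ptgs2os2, which was lower, and Bc1. A list of lncRNAs that overlap ribosomal RNA had no member.

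Calls differed in number between classes of position, which is given as a description with no test, beside 26.8% lower and 21.1% higher over all tested genes. Each member was put in a single class. A start within 2 kb of a coding gene's start on the other strand came first, then opposite-strand overlap, then same-strand overlap. In M21, 71 members with no such start overlap no coding gene, and of these 41 were lower and 3 higher, with a median log2 change of -0.87. Another 68 start within 2 kb of a coding gene's start on the other strand, the layout of a shared promoter, and of these 14 were lower and 12 higher, with a median of 0.12. Of the members without such a start, 32 overlap a coding gene on the other strand, 13 lower and 5 higher. A further 28 overlap one on the same strand alone, 8 lower and 5 higher. The median GC content was 46.1% in the first class, with neither a shared start nor coding overlap, and 49.8% in the second, with a shared start. The GC correction left the first class with 20 lower and 12 higher with a median of -0.25, and the second with 8 lower and 13 higher and a median of 0.24.

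Transcript GC content went with fold change more closely than length did. Over the members in M21 the Spearman correlation was 0.51 for GC content and -0.08 for length, as a description of genes that share libraries and depth. For GC content it was 0.70 over 13043 tested genes, so the trend is not particular to the members. Over all tested genes, of any GC content, 26.8% were called lower and 21.1% higher. Of the 50 members with the lowest GC content (34.5% to 43.8%) 31 were lower and 2 higher, with a median of -1.19. Of the 49 with the highest (52.0% to 75.5%) 6 were lower and 13 higher, with a median of 0.35. The GC correction, which is fitted on all genes, gave medians of 0.72 and -0.11 for these 2 sets, so the order of the sets turned round. After it the low-GC set had 7 lower and 19 higher, and the high-GC set 9 lower and 2 higher. Turned calls of single AT-rich members are to be read beside these counts.

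**Figure D5:**
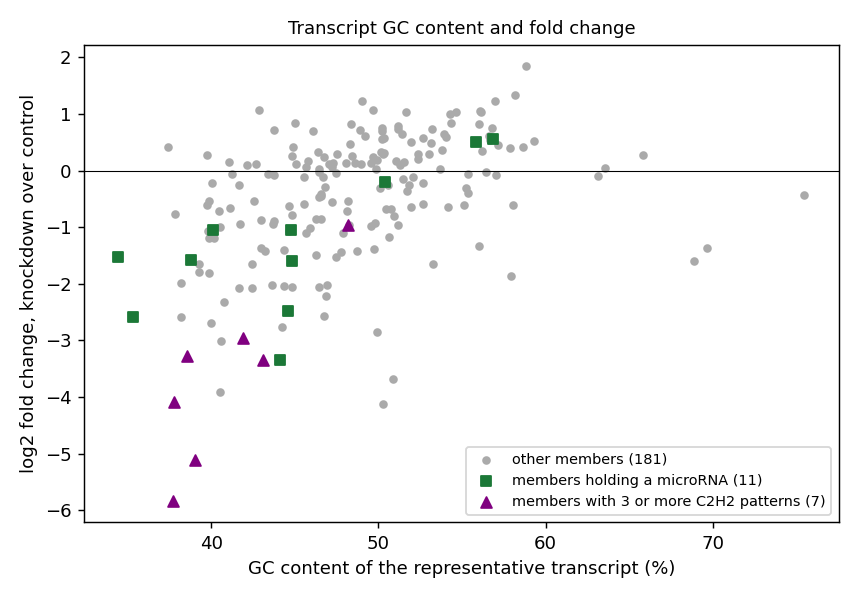
Log2 fold change, knockdown over control (y axis), against the GC content of the representative M21 transcript (x axis, percent) for the members in M21. Members with 3 or more C2H2 matches and most microRNA hosts lie at low GC content and low fold change. Gm47283 and Erdr1 are among the GC-rich members with large falls.

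Promoter letters are given by call, again with no test. The median number of CG dinucleotides in the 300 base window was 11 over 43 members called lower, 29.5 over 10 called higher and 22 over 52 in neither group. GGGCGG letters were in 16 of the 43, 8 of the 10 and 30 of the 52. Over all RefSeq promoters of this length 35.9% hold GGGCGG, 37.9% CCAAT and 14.2% TATAAA, and of the 105 member promoters 51.4%, 49.5% and 9.52% do. The 27025 promoters behind the first shares include genes not tested here, while the members were chosen by their reads. Nothing is read from the difference. By position, the 40 with a shared start had a median of 28 CG and the 41 with neither a shared start nor coding overlap 11. These are counts of letters on either strand and not sites of binding.

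The 6 members with the smallest fold changes at 5 CPM or more were in neither group. A930015D03Rik had 20.7, 20.3 and 22.9 CPM in knockdown and 17.3, 25.9 and 19.6 CPM in control libraries (0.02 ± 0.18). 1700048O20Rik had 7.33, 7.15 and 8.08 CPM in knockdown and 6.91, 8.52 and 7.47 CPM in control libraries (-0.02 ± 0.15). In both, the control range enclosed the knockdown range. The others were 2410006H16Rik, Zfas1, Epb41l4aos and Brip1os. A p that misses the threshold does not show that levels were equal.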

How the data were processed

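Raw counts per gene and FPKM values were deposited by the authors for 6 libraries, all of whose columns were matched to a library by title. A stranded mRNA kit was used on 2 μg of RNA, and fragments of 200 to 500 bp were read with paired 150-base reads, per the labels' protocols. The submitters' processing notes list HISAT2, MultiQC and GRCm39. Counting tool, strand setting and annotation release: not given in the sources used here. FPKM values, which the authors rounded to 2 decimals, gave levels per length and alternatives only.

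The members and the 8 gene lists were chosen with earlier results of these data known. Counts of all genes were filtered with filterByExpr (13067 genes, 99.9% of reads), scaled by TMM (factors 0.895 to 1.10) and tested two-sided with edgeR 4.0.16 in R 4.3.3 (quasi-likelihood, robust, no covariates, biological coefficient of variation 0.213). Benjamini-Hochberg adjustment ran over every tested gene, with 0.05 as the threshold. An SE is the size of the log2 fold change over the root of its F statistic. Values in CPM are TMM-scaled. Code for the fit was checked on simulated data. Alternatives were DESeq2 1.42.0, limma 3.58.1 on log2(FPKM + 1) and log2(FPKM + 0.1), other scalings and filters, offsets that remove a loess trend (span 0.3) of log ratio on GC content or GC content and length, each library left out, and other choices of the 200. Those that combine the GC correction with leaving out control replicate 2, or choose by control replicates 1 and 3, were added after seeing the data.

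Transcript GC content, length, position and finger matches came from GENCODE M21 on GRCm38, an earlier build than the files', matched by identifier with 1 transcript a gene, and sequences from RefSeq on GRCm38.p6. Identities are the best blastn 2.17.0 alignment. Named members are the 10 with the highest control FPKM, the 10 with the most control reads, the 8 largest falls and 8 largest rises among called members with separate groups and at least 2 CPM in the higher group, members of the lists, opposite-strand symbols, the edge of the rule and the 6 smallest changes. MicroRNA hosts beyond the lists, finger-like members and neighbours were added after the values were seen. No pair of replicates agreed within sampling noise (chi-square per degree of freedom of 7.13 or more), so each library counts once.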

Additional observations from a re-analysis of the deposited data

How the results depend on the processing

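Main counts were 77 members lower and 25 higher, with a median log2 change of -0.27, and 3508 genes lower and 2758 higher. Leaving out each library in turn gave 52 to 85 lower and 14 to 48 higher members, medians of -0.33 to -0.24, and 2693 to 4891 lower and 1647 to 4701 higher genes, with all the highest counts without control replicate 2. The split of member calls moved from 75.5% lower to 63.5% under upper-quartile factors, 57.9% under library totals, 48.0% with the GC trend removed, 42.2% with GC and length trends removed and 41.9% in limma on log2(FPKM + 1). Library totals gave 45 higher members, a median of -0.025 and 4280 higher genes, and upper-quartile factors a median of -0.087. These scalings shifted the median of all genes by 0.25 and 0.19, and limma by 0.27. Members stood 0.29 below all genes (members minus all genes -0.29) under the main, upper-quartile and library-total scalings. A change of scaling moves all genes nearly alike, so this gap could hardly change, and nothing is read from its constancy. The choice by control reads also partly sets it. Members minus all genes was 0.032 with the GC trend removed and 0.076 with GC and length trends removed. A filter of 5 CPM in 3 libraries gave 37 lower members and a median of -0.11. The limma fits gave 31 lower members with either pseudocount, 43 higher members with 1 and 41 with 0.1, medians of 0.19 and 0.25, and 1976 and 1974 lower genes, and with no filter 44 lower, 38 higher and a median of 0.014. Only 129 members entered the filtered limma fits. With the GC trend removed there were 36 lower and 39 higher members, a median of 0.061 and 1989 lower genes. GC and length together gave 38 lower, 52 higher and a median of 0.14. GC with control replicate 2 left out gave 77 higher, a median of 0.24 and 4506 higher genes. Choosing by knockdown reads gave 45 lower, 46 higher and a median of 0.18, by all reads a median of -0.031, by CPM of all libraries 38 higher and a median of -0.024, the first 100 gave 51 lower, 13 higher and -0.62, and the first 300 a median of -0.21. The cause of these shifts was not tested.

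DESeq2 gave 78 lower and 24 higher members. With the replicate block, 75 members were lower and 19 higher, but same-numbered libraries of the 2 groups had deviations correlated at -0.08, 0.04 and 0.05, so the numbers are not shown to pair the libraries.

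Of 1122 values of 62 named members under alternatives, 865 kept direction and call, 50 changed sign without a call under either setting (in 11 genes), 127 lost the call, 40 gained one and 40 turned round with a call on at least 1 side, in 17 genes. Turned values follow in the order GC trend removed, GC and length trends removed, and GC trend removed without control replicate 2. They were -0.20, -0.34 and -0.11 for Gm20427, 0.12, 0.17 and 0.058 for Norad, 1.17, 1.05 and 1.40 for Bc1, 1.68, 1.79 and 2.14 for Chaserr, 0.83, 0.96 and 1.01 for Oip5os1, and 0.21, 0.29 and 0.60 for Lockd. They were 1.64, 1.75 and 2.25 for Dleu2, 0.96, 0.93 and 0.94 for Mir17hg, 0.36, 0.35 and 1.15 for Mir99ahg, 0.38, 0.39 and 0.55 for Jpx, and 0.74, 0.89 and 0.60 for 6720427I07Rik. 1700048O20Rik was at 0.50 and 0.69 in the last 2. In the last alone Gm49513 was at -0.039, Ptgs2os2 at 0.11 and Gm28052 at -0.43. With each library left out in turn, Zfas1 ranged from -0.22 to 0.21 and Epb41l4aos from -0.21 to 0.27, both called higher without control replicate 2. With 118 control reads at the edge of the list and single reads in some knockdown libraries, small changes were not detectable in the lowest members.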

Other observations

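Levels of the 200 lncRNAs ordered the knockdown libraries more alike than the control libraries. Rank correlations between knockdown libraries were 0.97 in all 3 pairs, against 0.80, 0.84 and 0.94 between control libraries. The members were chosen by control reads, with 118 summed control reads at the edge, while knockdown libraries reach down to 1 read. The choice thus bounds the range in control and not in knockdown, and nothing is read from the difference. The first 10 members took 59.6% to 60.8% of member reads in knockdown libraries and 57.3% to 65.8% in control libraries. All lncRNAs of the count table, the named exclusions among them, took 0.444% to 0.450% of reads in knockdown and 0.585% to 0.691% in control libraries. Among tested lncRNAs below the first 200, 33 of 282 were lower and 37 higher, with a median log2 change of 0.24. The shares were 11.7% and 13.1%, beside 26.8% and 21.1% over all tested genes. These lncRNAs were set below the members by control reads, and those low in control could pass the filter through knockdown reads. Their balance is thus partly set by the choice, and nothing is read from it.

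Coding genes that share a start region with a member were tested in 65 pairs. Both were lower in 8, both higher in 3, and in 2 they were called in opposite directions. In 20 pairs neither gene was called, and in the others only 1 of the 2 was. Over all tested genes 26.8% were called lower and 21.1% higher, and nothing is read from the pair counts. Over the 65 pairs the 2 fold changes had a Spearman correlation of 0.35, as a description of genes that share libraries. For members without a shared start, it was 0.10 over 22 pairs with opposite-strand overlap. It was 0.44 over 24 pairs with same-strand overlap alone, where reads may be shared.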
